A study of Mus musculus with 9 samples.

Results

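The Zfp36, Btg and Tob genes encode factors that bring messenger RNAs to the deadenylation machinery, and their expression was followed in mouse embryonic fibroblasts (MEFs) exposed to low- or high-intensity hyperosmotic stress. The set was chosen by symbol: 3 genes of the Zfp36 family (Zfp36, Zfp36l1 and Zfp36l2) and 5 genes of the Btg and Tob family (Btg1, Btg2, Btg3, Tob1 and Tob2), that is 8 of the 35275 genes in the table. All 8 were expressed above the filter on low counts, among 13082 genes tested. Tob2 has a second row of 4 to 14 counts, which lies over the 5′ end of the main Tob2 gene on the same strand and did not differ in any comparison (edgeR adjusted p = 0.939, 0.273 and 0.246). The further members Zfp36l3 (0 to 2 counts) and Btg4 (0 to 3 counts) were at or below the floor of 3 counts, a floor that covers counting error only.

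Wild type C57Bl/6 MEFs in DMEM with serum were sampled in 3 groups of 3 libraries each. The iso-osmolar group (300 mOsm) received no sucrose, the low-intensity group stood for 3 h in medium with 200 mM added sucrose (500 mOsm), and the high-intensity group for 3 h in medium with 300 mM added sucrose (600 mOsm). No group carried a genetic change, and the sources used here do not state whether the 3 libraries of a group came from separate cultures, so p-values measure the spread between these libraries, which may be technical. Libraries were made from poly(A)-selected RNA, so the values are levels of mRNA that kept a poly(A) tail, not decay rates or protein levels.

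Zfp36 proteins (tristetraprolin and its relatives) bind AU-rich elements in the 3′ untranslated region (3′ UTR) of short-lived mRNAs, such as those of cytokines and immediate early genes, and recruit the CCR4-NOT deadenylase complex. Btg and Tob proteins bind the deadenylase subunits CNOT7 and CNOT8 directly, Tob proteins also contact poly(A)-binding protein, and both are known as antiproliferative proteins. Shortening of the poly(A) tail is followed by decapping and 5′ to 3′ decay or by 3′ to 5′ decay in the exosome. Several of these factors are themselves products of immediate early genes, and Zfp36 family mRNAs are known targets of their own proteins.

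Depth was similar in all libraries, with 21716042 to 26740832 reads counted on genes, where 3 counts correspond to 0.112 to 0.138 CPM (counts scaled to the library total). Within each group the lowest correlation between libraries was 0.993 to 0.994 on the log2 scale. The fibroblast identity of the cells was checked on 10 marker genes: 9 had an FPKM (reads scaled to gene length and library total) above 1 in every library, and Dcn was below 1. Summed over the list, fibroblast markers stood at 20726 to 21863 CPM in iso-osmolar medium, 20823 to 21646 CPM at 500 mOsm and 23503 to 25227 CPM at 600 mOsm. Col1a1, the largest part, was at a mean of 8943, 8863 and 11250 CPM in the same order. Col3a1 (47.5, 19.7 and 30.3 CPM) and Pdgfra (37.7, 23.3 and 23.6 CPM) were lower in both stressed groups. The 5 macrophage markers in the table summed to 15.7 to 20.0, 24.2 to 35.9 and 18.4 to 29.2 CPM in the same order, and the 6 epithelial markers, each below an FPKM of 1 in every library, to 0.205 to 0.491, 4.04 to 4.80 and 0.348 to 0.628 CPM, where Cdh1 went from 0.0137 to 3.47 and 0.0944 CPM. Endothelial markers summed to 0.778 to 0.900 CPM in iso-osmolar medium, 12.0 to 13.4 CPM at 500 mOsm and 2.13 to 3.18 CPM at 600 mOsm, most of it Pecam1 in the stressed groups (0.279, 11.1 and 1.67 CPM in the same order). The epithelial and endothelial sums thus peaked at 500 mOsm, mostly through Cdh1 and Pecam1. Tek, Kdr, Krt8 and Krt18 also had their highest mean there, each below 1 CPM. Cdh5 was at 0.554, 0.568 and 0.751 CPM, and Epcam, Krt5 and Krt14 were at 0 to 5 counts in every library. Of the macrophage markers, Itgam (0.0440, 1.85 and 0.155 CPM), Csf1r (11.2, 14.5 and 9.92 CPM) and Ptprc (0.0288, 0.208 and 0.0140 CPM) also had their highest mean at 500 mOsm. Lyz2 (4.93, 10.2 and 12.4 CPM) and Cd68 (1.28, 1.62 and 1.64 CPM) had theirs at 600 mOsm. In such bulk samples, fewer cells of a type and less RNA per cell cannot be told apart, and the part of other cells in the results below was not tested.

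The 3 Zfp36 family mRNAs carry the nonamer TTATTTATT, the core of the element that their own proteins bind. It occurs once in the 3′ UTR of the transcript examined for each gene, and the sites are shown with 10 bases on either side. The sequences run 5′ to 3′ on the minus strand of GRCm38, with the nonamer in capitals, and lie in the exon of the 3′ UTR at chr7:28376951-28376979 for Zfp36, chr12:80108167-80108195 for Zfp36l1 and chr17:84184914-84184942 for Zfp36l2.
Zfp36: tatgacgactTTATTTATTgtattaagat
Zfp36l1: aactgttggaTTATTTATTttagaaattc
Zfp36l2: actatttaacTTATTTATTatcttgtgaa
The nonamer was in the 3′ UTR of 953 of the 11775 tested genes with an annotated one (8.09%), and in none of the 5 Btg and Tob genes. The shorter pentamer ATTTA, which lies within the nonamer and was found in 68.8% of those 3′ UTRs, occurred 3 times in Zfp36 (774 bases of 3′ UTR), 9 times in Zfp36l1 (1835 bases), 5 times in Zfp36l2 (1822 bases), 11 times in Btg1 (4166 bases), 5 times in Btg2 (2199 bases), 4 times in Btg3 (439 bases), 3 times in Tob1 (767 bases) and 4 times in Tob2 (2457 bases). Per kilobase this was 1.63 in Tob2 to 9.11 in Btg3, and every member lay above the median of 1.26 over the tested genes. A match describes letters in the sequence and does not show binding.

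In iso-osmolar medium, the level per gene length spanned from Zfp36l2, at a mean of 139 FPKM, to Btg2, at 1.11 FPKM. Between them came Tob2 (29.3 FPKM), Btg3 (25.7), Btg1 (18.4), Zfp36l1 (15.9), Tob1 (7.12) and Zfp36 (4.91), and only Btg1 and Zfp36l1 overlapped with their neighbour in this order. At 500 mOsm, Zfp36l2 (103 FPKM) and Tob2 (29.0) stayed ahead, Btg1 (22.4), Btg3 (21.5), Zfp36l1 (21.3) and Zfp36 (16.5) formed a chain of overlapping neighbours, and Tob1 (12.9) and Btg2 (0.341) followed. At 600 mOsm, Tob1 (22.1 FPKM) had moved to the third place behind Zfp36l2 (41.2) and Tob2 (28.6), overlapping with Btg3 (21.2), and Btg1 (12.7), Zfp36l1 (6.90), Zfp36 (4.14) and Btg2 (0.460) came after it without overlap.

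**Figure D1:**
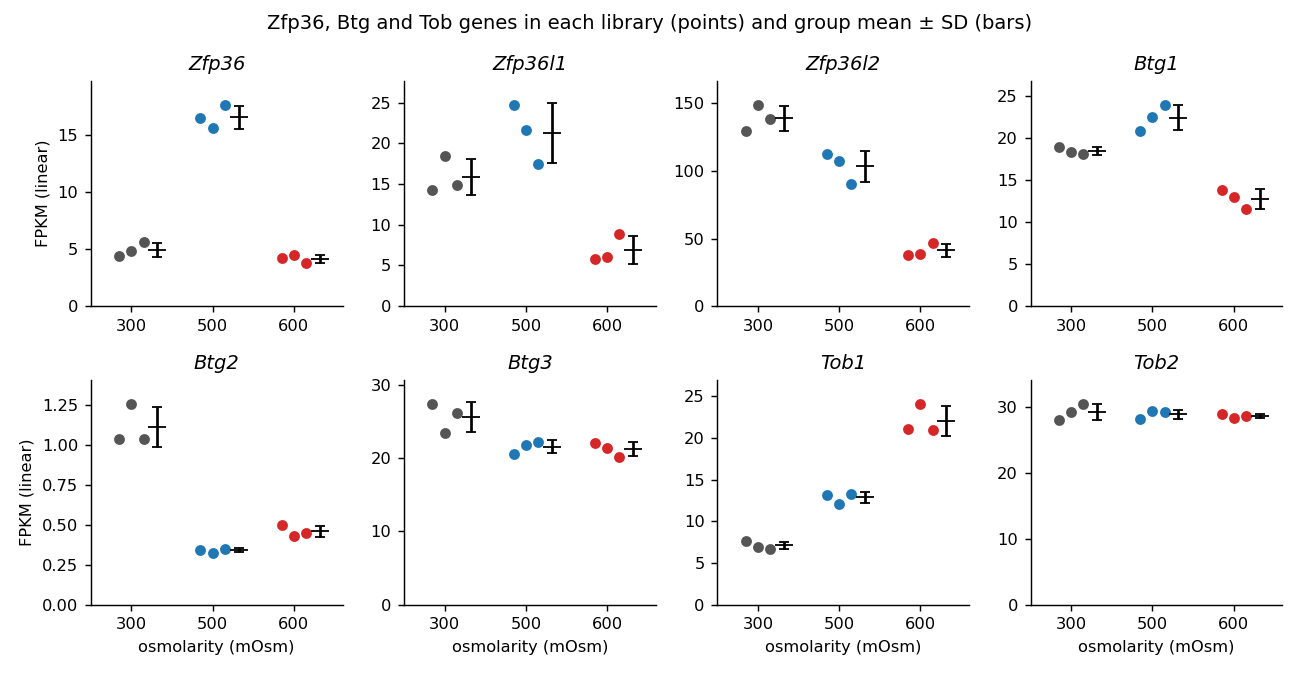
FPKM (linear axis from 0) of the 8 genes in each of the 9 libraries (points) against osmolarity in mOsm, with the group mean ± SD beside them (bars, n = 3). Zfp36 is high only in the 3 libraries at 500 mOsm, Zfp36l2 falls and Tob1 rises from 300 to 600 mOsm, and Tob2 stays between 28.1 and 30.5 FPKM.

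At low intensity, 3 of the 8 genes rose (Zfp36, Btg1 and Tob1) and 3 fell (Zfp36l2, Btg2 and Btg3) against iso-osmolar medium, where 13.2% of all genes tested rose and 14.8% fell. At high intensity against iso-osmolar medium, 1 rose (Tob1) and 5 fell (Zfp36l1, Zfp36l2, Btg1, Btg2 and Btg3), beside 15.1% and 20.0% of all genes. Between the intensities, 1 was higher at 600 than at 500 mOsm (Tob1) and 4 were lower (all 3 Zfp36 genes and Btg1), beside 11.9% and 17.2% of all genes. The calls are edgeR's quasi-likelihood test at a Benjamini-Hochberg adjusted p under 0.05 over all genes tested. The median size of the log2 fold change over the 8 genes was 0.42, 0.85 and 0.80 in the 3 comparisons, beside 0.17, 0.22 and 0.18 over all genes tested, whose median log2 fold change was 0.01 in each. The 3 comparisons share their libraries pairwise, so they are given side by side and are not independent of each other.

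**Figure D2:**
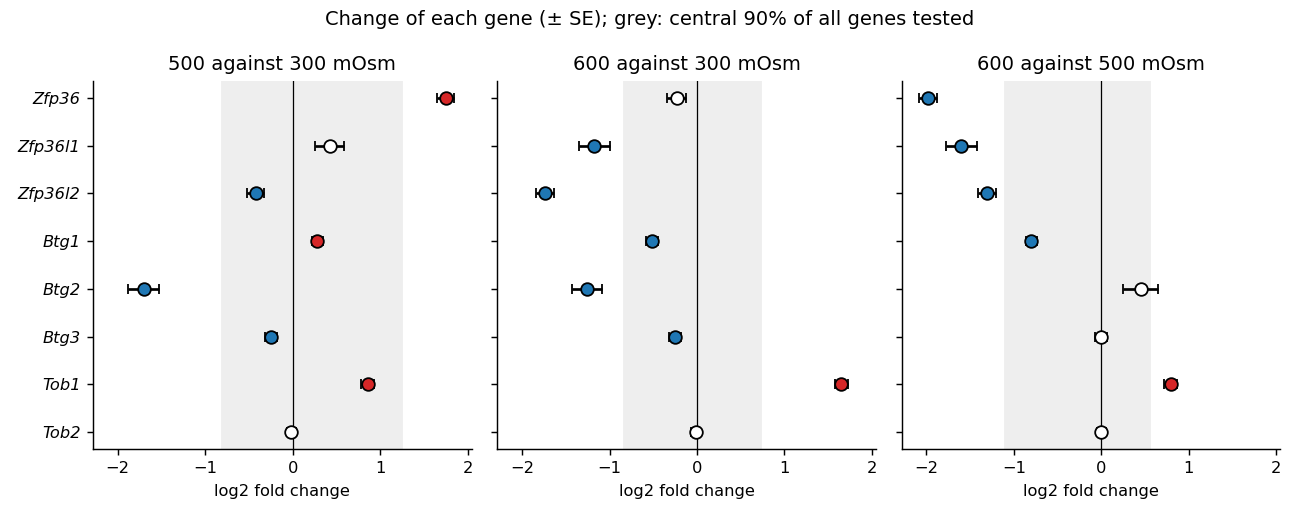
Log2 fold change ± SE from edgeR for the 8 genes in each comparison, with red points for genes that rose, blue for genes that fell and open points for genes that did not pass an adjusted p of 0.05. The grey band holds the central 90% of all 13082 genes tested, and Zfp36 and Btg2 at 500 mOsm and Tob1, Zfp36l1, Zfp36l2 and Btg2 at 600 mOsm lie outside it against iso-osmolar medium.

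Zfp36 (ENSMUSG00000044786, chr7:28376784-28379255, mm10), which encodes tristetraprolin, was the member with the strongest rise at low intensity. Its level was 4.37, 4.79 and 5.58 FPKM in the iso-osmolar libraries (170 to 242 counts), 16.4, 15.6 and 17.6 FPKM at 500 mOsm (716 to 816 counts), and 4.21, 4.44 and 3.76 FPKM at 600 mOsm (176 to 182 counts). All 500 mOsm libraries stood above all others, and the iso-osmolar and 600 mOsm libraries overlapped. Against iso-osmolar medium Zfp36 was 3.36-fold higher at 500 mOsm (log2 fold change 1.75, SE 0.0988, edgeR adjusted p = 5.58e-08) and 3.95-fold lower at 600 than at 500 mOsm (log2 fold change -1.98, SE 0.1004, adjusted p = 2.39e-08). At 600 mOsm against iso-osmolar medium the log2 fold change was -0.23 (SE 0.107, adjusted p = 0.111).

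Zfp36l1 (ENSMUSG00000021127, chr12:80107760-80113013, mm10) encodes the relative also known as Brf1. It was at 14.3, 18.4 and 14.8 FPKM in iso-osmolar medium, 24.7, 21.7 and 17.4 FPKM at 500 mOsm, and 5.75, 6.03 and 8.90 FPKM at 600 mOsm. The iso-osmolar and 500 mOsm libraries overlapped, with a log2 fold change of 0.42 (SE 0.166, edgeR adjusted p = 0.0784), and every 600 mOsm library was below both. The fall at 600 mOsm had a log2 fold change of -1.18 against iso-osmolar medium (SE 0.176, adjusted p = 2.62e-04) and of -1.60 against 500 mOsm (SE 0.175, adjusted p = 2.27e-05), a 3.03-fold difference between the intensities. The call at 500 mOsm depends on single libraries: the adjusted p was 0.0420 without iso-osmolar replicate 2, 0.0314 without 500 mOsm replicate 3, and 0.0250 without 600 mOsm replicate 3. Zfp36l1 overlaps an antisense lincRNA, Gm26669, over 4967 bases. Whether reads were counted by strand is not given in the sources used here, and the lincRNA held 0 to 4 counts per library.

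Zfp36l2 (ENSMUSG00000045817, chr17:84183931-84187947, mm10), which encodes Brf2, had the highest level per gene length of the 8 in every library and fell stepwise with intensity. It was at 129.9, 149 and 138 FPKM in iso-osmolar medium, 112, 107 and 90.4 FPKM at 500 mOsm, and 38.0, 38.8 and 46.9 FPKM at 600 mOsm. None of the 3 groups overlapped. The log2 fold change was -0.42 at 500 mOsm (SE 0.0992, edgeR adjusted p = 0.00610) and -1.73 at 600 mOsm (SE 0.103, adjusted p = 1.05e-07, 3.32-fold lower) against iso-osmolar medium, and -1.31 between the intensities (SE 0.102, adjusted p = 1.21e-06, 2.48-fold lower).

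Summed over the family, Zfp36 mRNA was at 149, 172 and 159 FPKM in iso-osmolar medium, 154, 145 and 125 FPKM at 500 mOsm, and 47.9, 49.2 and 59.5 FPKM at 600 mOsm. The sums of the first 2 groups overlapped and those at 600 mOsm were below all others. Against iso-osmolar medium the mean sum at 600 mOsm was 3.06-fold lower (52.2 ± 6.36 against 159.7 ± 11.7 FPKM, SD, n = 3, exact two-sided permutation test, p = 0.1, the smallest p that 3 against 3 libraries allow) and 2.70-fold lower than at 500 mOsm (141 ± 14.4 FPKM, SD, n = 3, same exact test, p = 0.1). Between 500 mOsm and iso-osmolar medium the exact p was 0.2. The makeup of the sum shifted at low intensity: Zfp36 itself made up 3.08% ± 0.385 of it without stress, 11.8% ± 1.90 at low intensity and 8.04% ± 1.499 at high intensity (SD, n = 3), while Zfp36l2 made up 87.0%, 73.2% and 78.9%.

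**Figure D3:**
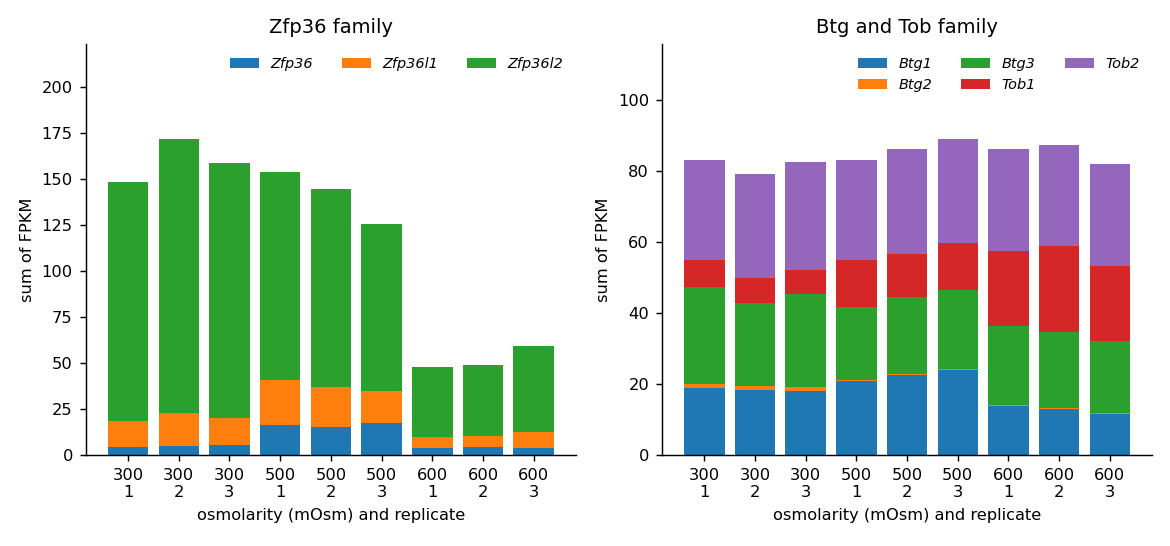
Sum of FPKM in each library, stacked by gene (linear axes from 0), for the Zfp36 family (left) and the Btg and Tob family (right), with osmolarity in mOsm and replicate number below each bar. The Zfp36 family drops to 47.9 to 59.5 FPKM in the 3 libraries at 600 mOsm, whereas the Btg and Tob sum stays between 79.3 and 89.0 FPKM in all 9 libraries while Tob1 grows within it.

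The Btg and Tob sum stayed within a narrow range, and its members changed in different directions. It was 81.6 ± 2.07 FPKM in iso-osmolar medium, 86.1 ± 2.92 FPKM at 500 mOsm and 85.1 ± 2.83 FPKM at 600 mOsm (SD, n = 3). Exact two-sided permutation tests gave p = 0.1 for 500 mOsm and p = 0.3 for 600 mOsm against iso-osmolar medium, and p = 0.7 between the intensities. The first of these is the smallest p that 3 against 3 libraries allow. All sums at 500 mOsm (83.19 to 89.03 FPKM) lay above all iso-osmolar sums (79.28 to 83.10 FPKM), by a small margin. Within this sum, Tob1 went from 8.72% to 14.96% and 25.9% with rising osmolarity, and Btg1 from 22.6% to 26.0% and 14.96%.

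Tob1 (ENSMUSG00000037573, chr11:94211454-94215495, mm10), an adaptor between poly(A)-binding protein and the CCR4-NOT complex, was the only one of the 8 that rose in every comparison. Its level was 7.63, 6.98 and 6.74 FPKM in iso-osmolar medium (373 to 393 counts), 13.2, 12.1 and 13.3 FPKM at 500 mOsm (735 to 789 counts), and 21.0, 24.1 and 21.0 FPKM at 600 mOsm (1162 to 1278 counts). The 3 groups were fully separated. Tob1 was 1.81-fold higher at 500 mOsm (log2 fold change 0.86, SE 0.0760, edgeR adjusted p = 2.74e-06) and 3.14-fold higher at 600 mOsm (log2 fold change 1.65, SE 0.0754, adjusted p = 1.21e-08) than in iso-osmolar medium, and 1.73-fold higher at 600 than at 500 mOsm (log2 fold change 0.79, SE 0.0718, adjusted p = 4.61e-06).

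Tob2 (ENSMUSG00000048546, chr15:81848270-81858326, mm10), its close relative, was level across the groups. It was at 28.1, 29.3 and 30.5 FPKM in iso-osmolar medium, 28.2, 29.5 and 29.2 FPKM at 500 mOsm, and 28.9, 28.3 and 28.7 FPKM at 600 mOsm. All groups overlapped. The log2 fold change was -0.01 at 500 mOsm and -0.01 at 600 mOsm against iso-osmolar medium, each with a 95% interval of -0.12 to 0.09, and it lay within -0.11 to 0.11 between the intensities (edgeR adjusted p = 0.865, 0.849 and 0.993), so a change of the size seen for Tob1 lies outside these intervals.

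Btg1 (ENSMUSG00000036478, chr10:96617001-96622813, mm10), known for keeping cells quiescent, rose slightly at low intensity and fell at high intensity. It was at 18.9, 18.3 and 18.1 FPKM in iso-osmolar medium, 20.9, 22.5 and 23.9 FPKM at 500 mOsm, and 13.8, 13.0 and 11.5 FPKM at 600 mOsm, without overlap between any groups. The log2 fold change was 0.28 at 500 mOsm (SE 0.0649, edgeR adjusted p = 0.00507) and -0.51 at 600 mOsm (SE 0.0661, adjusted p = 7.57e-05) against iso-osmolar medium, and -0.80 between the intensities (SE 0.0658, adjusted p = 2.00e-06, 1.74-fold lower).

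Btg2 (ENSMUSG00000020423, chr1:134075170-134079120, mm10), a p53-responsive early gene, was the least abundant member and fell at both intensities. Its level was 1.04, 1.26 and 1.04 FPKM in iso-osmolar medium (62 to 85 counts), 0.345, 0.327 and 0.352 FPKM at 500 mOsm (23 to 25 counts), and 0.499, 0.429 and 0.453 FPKM at 600 mOsm (26 to 33 counts). Every stressed library was below every iso-osmolar library, and the 600 mOsm libraries were all above the 500 mOsm libraries. The fall was 3.25-fold at 500 mOsm (log2 fold change -1.70, SE 0.178, edgeR adjusted p = 1.22e-05) and had a log2 fold change of -1.25 at 600 mOsm (SE 0.172, adjusted p = 1.30e-04). Between the intensities the log2 fold change of 0.45 did not pass the test (SE 0.201, adjusted p = 0.118).

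Btg3 (ENSMUSG00000022863, chr16:78359860-78377192, mm10), another antiproliferative family member, fell by a small amount at both intensities. It was at 27.4, 23.4 and 26.2 FPKM in iso-osmolar medium, 20.6, 21.8 and 22.3 FPKM at 500 mOsm, and 22.04, 21.4 and 20.2 FPKM at 600 mOsm. The stressed libraries were below the iso-osmolar ones and overlapped with each other. The log2 fold change was -0.25 at 500 mOsm (SE 0.0701, edgeR adjusted p = 0.0184) and -0.25 at 600 mOsm (SE 0.0704, adjusted p = 0.0144), and its 95% interval between the intensities was -0.16 to 0.15. With 1 library left out the log2 fold change stayed at -0.30 to -0.21 for low intensity and -0.31 to -0.21 for high intensity, but the calls depended on single libraries. At 500 mOsm the adjusted p was 0.0758 without iso-osmolar replicate 1, 0.0546 without iso-osmolar replicate 3 and 0.0666 without 500 mOsm replicate 1, and at 600 mOsm it was 0.0651 without iso-osmolar replicate 1 and 0.0539 without 600 mOsm replicate 3.

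The promoters of Zfp36, Btg2 and Tob1 are shown because these genes had the strongest changes of the set at 500 mOsm. Each covers 250 bases before to 50 bases after the start in RefSeq (GRCm38.p6), 5′ to 3′ on the gene's strand, at chr7:28379179-28379478 (minus strand), chr1:134079106-134079405 (minus strand) and chr11:94211204-94211503 (plus strand). Capitals mark a CArG box, the site of serum response factor, in Zfp36, a cAMP response element (TGACGTCA) and CCAAT boxes in Btg2, and a TATA box (TATAAA) and CCAAT boxes in Tob1.
Zfp36: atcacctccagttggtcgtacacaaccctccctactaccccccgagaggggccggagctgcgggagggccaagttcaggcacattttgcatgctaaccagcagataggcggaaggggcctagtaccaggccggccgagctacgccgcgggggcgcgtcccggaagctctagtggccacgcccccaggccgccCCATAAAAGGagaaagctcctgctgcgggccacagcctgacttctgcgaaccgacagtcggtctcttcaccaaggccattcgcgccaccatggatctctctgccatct
Btg2: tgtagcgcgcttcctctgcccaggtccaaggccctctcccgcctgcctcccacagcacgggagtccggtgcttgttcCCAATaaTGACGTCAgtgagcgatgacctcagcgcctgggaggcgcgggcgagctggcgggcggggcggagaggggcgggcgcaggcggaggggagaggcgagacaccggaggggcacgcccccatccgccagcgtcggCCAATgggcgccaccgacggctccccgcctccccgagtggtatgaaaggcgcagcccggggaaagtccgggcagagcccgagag
Tob1: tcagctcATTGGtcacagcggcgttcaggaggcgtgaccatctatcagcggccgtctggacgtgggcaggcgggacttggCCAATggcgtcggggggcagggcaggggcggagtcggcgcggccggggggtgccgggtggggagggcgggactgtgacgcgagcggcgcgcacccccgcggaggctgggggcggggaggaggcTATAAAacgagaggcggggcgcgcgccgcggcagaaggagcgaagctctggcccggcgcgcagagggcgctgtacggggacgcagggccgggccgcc
The CArG box stood at -58 to -49 from the start of Zfp36 and was found in 1.63% of 32851 promoters of the same length, the cAMP response element at -166 to -159 in Btg2 (1.79% of promoters), and the TATA box at -47 to -42 in Tob1 (13.6%). CCAAT was found in 37.4% of promoters, on either strand as for the other motifs. The AP-1 motifs TGACTCA and TGAGTCA, the E-box CACGTG and the kappaB and TonE motifs were also searched, and none of them was found in these 3 windows. These matches are letters in a window and say nothing of binding in these cells.

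For each of the 8 genes, the gene with the most similar pattern was taken as the one with the smallest root mean square distance between log2 CPM values over the 9 libraries, each centred on its mean, among 10375 candidates. These libraries fall into 3 groups, so the distance mostly compares the group means. Zfp36 was nearest to Gadd45a (0.143), Zfp36l1 to Cpeb2 (0.193), Zfp36l2 to Mex3b (0.131) and Btg1 to Nrp2 (0.0767). Btg2 was nearest to Nod2 (0.127), Btg3 to Degs1 (0.0376), Tob1 to Hist1h2ai (0.117) and Tob2 to Pofut2 (0.0205). Gadd45a, a stress-induced growth arrest gene, was at a mean of 3.12 CPM in iso-osmolar medium, 10.7 CPM at 500 mOsm and 2.35 CPM at 600 mOsm, the same peak at low intensity as Zfp36. Mex3b, which encodes an RNA-binding protein, stood at 5.02, 3.79 and 1.43 CPM.

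Genes of 6 lists, 99 in all, cover the partners of these factors in mRNA decay and the known mRNA targets of Zfp36 proteins. Of these, 93 were tested. At 500 mOsm against iso-osmolar medium, 11 of them rose and 17 fell (11.8% and 18.3%), at 600 mOsm 6 rose and 41 fell (6.45% and 44.1%), and between the intensities 11 were higher and 32 lower at 600 mOsm (11.8% and 34.4%). The 15 tested targets, which are not decay factors, held 8 of these rises and 5 of the falls at 500 mOsm. At 600 mOsm they held 0 of the rises and 10 of the falls. Between the intensities they held 1 of the higher and 12 of the lower genes. The shares of all genes tested that rose or fell are those given above. The lists were chosen with results of these data known, and the counts are a description.

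The deadenylase subunits and poly(A)-binding proteins, to which both families bring their mRNAs, mostly did not pass the test, as was so for most genes tested. Of all genes, 13.2% rose and 14.8% fell at 500 mOsm, and 15.1% rose and 20.0% fell at 600 mOsm, against iso-osmolar medium. Of 17 genes, 0 rose and 3 fell at 500 mOsm, and 0 rose and 5 fell at 600 mOsm, with a median log2 fold change of -0.04 in both. Cnot6l, a catalytic subunit, fell at 500 mOsm (log2 fold change -0.75, SE 0.110, edgeR adjusted p = 2.00e-04), and Pabpc1, the main cytoplasmic poly(A)-binding protein, fell at 600 mOsm (log2 fold change -0.31, SE 0.0505, adjusted p = 4.99e-04). Pan2, the catalytic subunit of the other deadenylase, was higher at 600 than at 500 mOsm (log2 fold change 0.45, adjusted p = 0.00239).

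Decapping and 5′ decay genes (19) split at high intensity, with 5 higher and 8 lower at 600 mOsm against iso-osmolar medium and 0 higher and 3 lower at 500 mOsm. Edc3, an enhancer of decapping, fell at 500 mOsm (log2 fold change -0.40, adjusted p = 3.95e-04). Eif4enif1, which links the cap to the decay machinery, fell at 600 mOsm (log2 fold change -0.42, adjusted p = 6.65e-05), and Lsm7, of the Lsm ring that binds shortened tails, rose there (log2 fold change 0.31, adjusted p = 0.00104). Of 15 tested exosome and Ski complex genes, 0 rose and 2 fell at 500 mOsm and 1 rose and 0 fell at 600 mOsm. Over all genes tested, 13.2% rose and 14.8% fell at 500 mOsm, and 15.1% rose and 20.0% fell at 600 mOsm. The falls in both lists at 500 mOsm were near the share of all genes. Exosc4 had a log2 fold change of -0.28 at 500 mOsm (adjusted p = 0.00426), Exosc7 of 0.17 at 600 mOsm (adjusted p = 0.0354), and Skiv2l, the helicase of the Ski complex, of 0.26 between the intensities (adjusted p = 0.00253).

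Among 17 genes for other proteins that bind 3′ UTRs, 3 rose and 2 fell at 500 mOsm, whereas 0 rose, 11 fell and 6 did not pass the test at 600 mOsm (median log2 fold change -0.48), and 10 were lower at 600 than at 500 mOsm. For this list and the next, the shares of all genes that rose and fell were 13.2% and 14.8% at 500 mOsm. They were 15.1% and 20.0% at 600 mOsm, and 17.2% of all genes were lower at 600 than at 500 mOsm. Hnrnpd, which encodes the AU-rich element binding protein AUF1, fell at 600 mOsm (log2 fold change -0.70, SE 0.0872, edgeR adjusted p = 6.28e-05). Zc3h12a, the endonuclease Regnase-1, rose at 500 mOsm (log2 fold change 0.68, SE 0.126, adjusted p = 0.00113) and was lower at 600 than at 500 mOsm (log2 fold change -1.17, SE 0.130, adjusted p = 2.54e-05). Of 10 tested genes for the kinases, the phosphatase and the 14-3-3 proteins that control Zfp36 proteins, 0 rose and 2 fell at 500 mOsm and 0 rose and 7 fell at 600 mOsm (median log2 fold change -0.25). Ywhag, a 14-3-3 protein, fell at 500 mOsm (log2 fold change -0.25, adjusted p = 4.77e-04) and at 600 mOsm (log2 fold change -0.34, adjusted p = 4.21e-05), and Ywhab was lower at 600 than at 500 mOsm (log2 fold change -0.31, adjusted p = 4.72e-04).

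**Figure D4:**
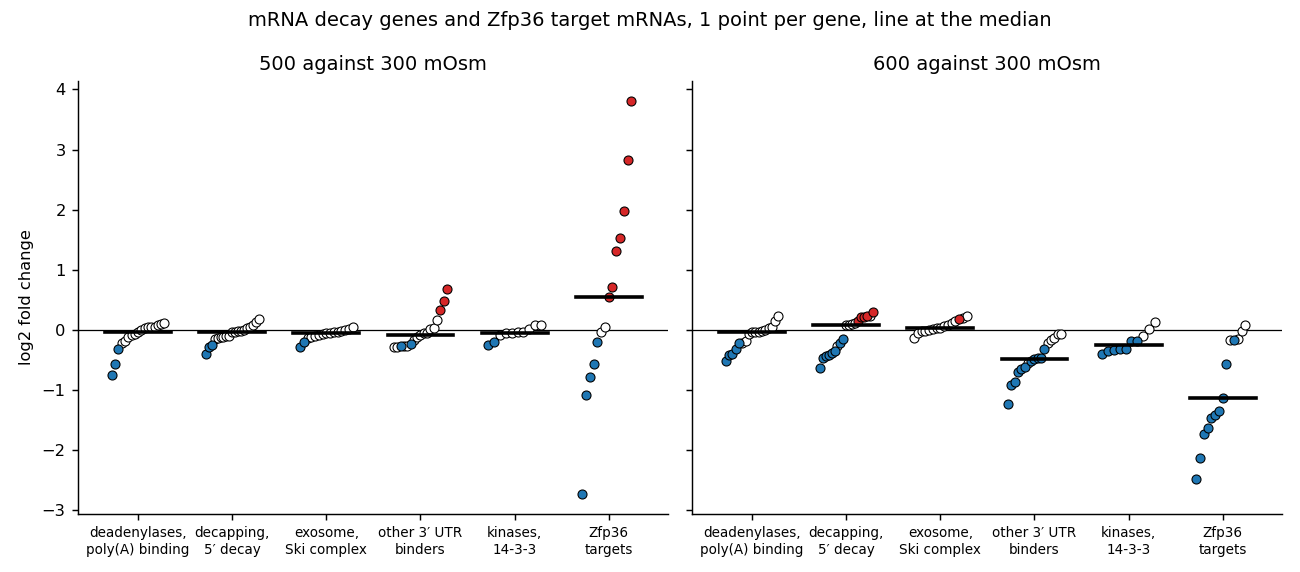
Log2 fold change from edgeR of each tested gene of the 6 lists (1 point per gene, ordered by value) at 500 mOsm (left) and 600 mOsm (right) against iso-osmolar medium, red where the gene rose, blue where it fell and open where it did not pass an adjusted p of 0.05, with a line at the list median. Zfp36 targets spread widest, with a median of 0.55 at 500 mOsm and -1.14 at 600 mOsm, and the point of Cxcl2 is left out because its iso-osmolar counts were near 0, although it enters the median.

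The mRNAs known as targets of Zfp36 proteins had the widest range of changes among the 6 lists. Of 15 tested, 8 rose and 5 fell at 500 mOsm, 0 rose and 10 fell at 600 mOsm against iso-osmolar medium, and 1 was higher and 12 were lower at 600 than at 500 mOsm, with median log2 fold changes of 0.55, -1.14 and -1.34. Beside these counts, 13.2% of all genes rose and 14.8% fell at 500 mOsm, and 15.1% rose and 20.0% fell at 600 mOsm. Between the intensities, 11.9% of all genes were higher and 17.2% lower at 600 mOsm. Tnf, Csf2, Il6 and Il1b, the cytokine targets from which the family is best known, were at 0 to 5 counts in every library and were not tested. Whether Zfp36 proteins acted on these mRNAs was not measured.

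The chemokine targets peaked at low intensity. Ccl2, a monocyte attractant, was at 9.64 ± 0.933 CPM in iso-osmolar medium, 38.0 ± 2.15 CPM at 500 mOsm and 9.49 ± 0.279 CPM at 600 mOsm (SD, n = 3), with log2 fold changes of 1.98 at 500 mOsm (edgeR adjusted p = 5.76e-09) and -0.02 at 600 mOsm (adjusted p = 0.866). Cxcl1, a neutrophil attractant, went from 25.003 to 72.5 and 9.85 CPM, so it rose at 500 mOsm (log2 fold change 1.54) and fell below iso-osmolar medium at 600 mOsm (log2 fold change -1.34). Ccl7 was at 3.70, 6.08 and 3.33 CPM and rose at 500 mOsm (log2 fold change 0.72). Cxcl2 was at 0.0409 ± 0.0410 CPM in iso-osmolar medium, below the floor, 1.31 ± 0.253 CPM at 500 mOsm and 0.109 ± 0.0394 CPM at 600 mOsm, and was called higher at 500 mOsm (adjusted p = 1.02e-05), with no fold given.

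Of the early and survival genes, Fos, Ier3 and Pim1 rose at 500 mOsm, as Zfp36 did, and Myc did not pass the test there. Fos, a subunit of AP-1, was at 2.84 ± 0.276 CPM in iso-osmolar medium, 40.0 ± 2.33 CPM at 500 mOsm and 2.53 ± 0.226 CPM at 600 mOsm (SD, n = 3). Its log2 fold change against iso-osmolar medium was 3.81 at low intensity (edgeR adjusted p = 6.07e-11) and -0.17 at high intensity (adjusted p = 0.381). Ier3, an early survival gene, rose from 128 to 911 CPM at 500 mOsm (log2 fold change 2.83) and was at 46.5 CPM at 600 mOsm (log2 fold change -1.46). Pim1, a survival kinase, was at 28.1, 69.6 and 29.6 CPM and rose at 500 mOsm (log2 fold change 1.31). Myc, a growth-promoting transcription factor, was at 309 and 319 CPM in the first 2 groups (log2 fold change 0.05, adjusted p = 0.600) and fell to 116 CPM at 600 mOsm (log2 fold change -1.42).

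Lif, Vegfa, Plau and Ccnd1 fell at both intensities. Lif, a cytokine, was at 131 ± 4.89 CPM in iso-osmolar medium, 19.7 ± 2.29 CPM at 500 mOsm and 23.5 ± 0.567 CPM at 600 mOsm (log2 fold changes -2.73 and -2.48, edgeR adjusted p = 8.57e-11 and 4.54e-10). Vegfa, an angiogenic factor, fell from 138 to 79.8 and 31.5 CPM (log2 fold changes -0.79 and -2.13), and Plau, the urokinase protease, from 63.0 to 29.9 and 18.9 CPM (log2 fold changes -1.07 and -1.73). Ccnd1, cyclin D1, had log2 fold changes of -0.20 and -0.17. Ptgs2, the inducible cyclooxygenase, rose at 500 mOsm (156 to 229 CPM, log2 fold change 0.55) and fell at 600 mOsm (50.8 CPM, log2 fold change -1.62). The receptor gene Notch1 was at 2.99 and 2.93 CPM in the first 2 groups (log2 fold change -0.03, adjusted p = 0.920) and at 1.35 CPM at 600 mOsm (log2 fold change -1.14, adjusted p = 4.87e-04).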

How the data were processed

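Poly(A)-selected RNA of 9 MEF libraries was sequenced. The submitters' processing notes name CASAVA 1.8, STAR and the build mm10, while the counting tool and its strand setting are not given in the sources used here. The authors deposited 1 table with raw read counts per gene and library, and FPKM values computed from those counts and the gene lengths. Its group columns and the authors' fold changes, p-values and adjusted p-values were not used.

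Counts were tested in R 4.3.3 with edgeR 4.0.16 (TMM, filterByExpr, quasi-likelihood test, two-sided, all 9 libraries in one fit, Benjamini-Hochberg over 13082 genes, threshold 0.05). The SE of a log2 fold change is its size divided by the square root of F. The fit was tested on simulated data. Total counts were 21716042 to 26740832 and the common biological coefficient of variation was 0.0756. Levels between genes were compared as FPKM. Replicate numbers were not used to pair the libraries in this fit. Alternatives used DESeq2 1.42.0, limma 3.58.1 on log2(FPKM + 1) or log2(FPKM + 0.1), other scalings, filters and thresholds, a replicate block, a fit of only the compared groups, and each library left out in turn.

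The members and lists were chosen with earlier results of these data known. All members, all tested Zfp36 targets, the gene of each list with the smallest p per direction and comparison, and the nearest gene by pattern (average log2 CPM of at least 1) are named, except for items not reported here. Where a symbol had several rows, that with most counts was used. UTR sites come from GENCODE transcripts (GRCm38) and promoters from RefSeq (GRCm38.p6, found for 7 of 8 members).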

Additional observations from a re-analysis of the deposited data

How the results depend on the processing

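Of 480 values of single genes under an alternative, 442 kept their direction and their side of the threshold. The counts of the 8 genes that passed (6, 6 and 5 in the 3 comparisons) ranged over 5 to 7, 5 to 6 and 5 to 5 with 1 library left out, and those of the list genes (28, 47 and 43) over 23 to 28, 36 to 47 and 35 to 42. With a log2 fold change of at least 1 required as well, 2 of the 8 genes passed at 500 mOsm against iso-osmolar medium and 3 between the intensities, and of the list genes 8, 9 and 13. The sign of differences near 0 turned: for Tob2 between the intensities it was -0.0166 with library size alone, -0.0116 with at least 10 counts in every library and -0.0154 or -0.0159 in limma with 1 or 0.1 added to FPKM, and for Btg3 0.0144 without a filter and 6.08e-04 in DESeq2. With 1 library left out, Tob2 ranged over -0.0525 to 0.00709 at 500 mOsm and -0.0492 to 0.0106 at 600 mOsm against iso-osmolar medium and -0.0188 to 0.0295 between the intensities, and Btg3 over -0.0387 to 0.0191 between the intensities. The rise of Zfp36l1 at 500 mOsm passed without a filter (edgeR adjusted p = 4.56e-06), a fit that gave Zfp36 an adjusted p of 1.08e-53 in place of 5.58e-08. It also passed in the fit of only those 2 groups (0.0295). It did not pass in DESeq2 (adjusted p = 0.239), with the replicate block (0.142) or in limma with 1 or 0.1 added to FPKM (0.0976 and 0.0997). With a library left out, the adjusted p of Zfp36l1 reached 0.257. The falls of Btg3 did not pass an adjusted p of 0.01. The cause was not tested. Libraries with the same replicate number did not deviate together (mean correlation -0.154 over 9 pairs, against 0.0776 over 18 pairs with different numbers), and with the replicate number as a block 6, 6 and 5 of the 8 genes and 23, 40 and 38 list genes passed, and 3111, 3798 and 3089 of all genes in place of 3659, 4594 and 3810. The largest shift of the median of all genes tested under another scaling within edgeR was 0.0189 (log2). In DESeq2 the median shifted by 0.0502, but that fit covered all genes with any count, so scaling and gene set cannot be told apart there. Depth limits Btg2 most, at 23 to 85 counts.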
